A study of Mus musculus with 6 samples.

Results

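Wnt signalling genes were described in the dorsal pancreas of E13.5 mouse embryos with and without Bicc1. The 44 genes were chosen by name: 19 Wnt ligands, 12 receptors (10 Frizzled genes with Lrp5 and Lrp6), 4 genes of the R-spondin and Lgr arm, 6 secreted antagonists and 3 canonical targets. Of these, 40 were found by symbol among the 24389 genes of each library, and Wnt1, Wnt3a, Wnt8a and Wnt8b were not analysed here. RNA sequencing covered 3 Bicc1 knockout (KO) and 3 wild-type (WT) libraries of embryos on a mixed C57BL/6 and ICR background. The labels describe neither the knockout allele nor whether a library came from 1 embryo or a pool, so p-values measure the spread of these samples alone, part of which may be technical.

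Wnt ligands are secreted, lipid-modified glycoproteins. In the canonical branch a ligand binds a Frizzled receptor with the co-receptor Lrp5 or Lrp6, β-catenin escapes destruction, and it activates target genes with TCF/LEF factors in the nucleus. Other ligands, such as Wnt5a and Wnt11, are best known for β-catenin-independent signalling in cell polarity and movement. R-spondins bind Lgr receptors and keep Frizzled receptors on the cell surface, whereas Sfrp and Dkk proteins block ligand or co-receptor. β-catenin is needed for the growth of the acinar lineage in the mouse pancreas, and Bicc1 encodes an RNA-binding protein that has been tied to restraint of canonical Wnt signalling through Dishevelled. The comparison of KO with WT asks whether the transcripts of this pathway differ when Bicc1 is lost.

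Bicc1 itself was 3.96, 4.91 and 4.48 in KO 1 to 3 and 19.7, 19.5 and 18.2 in WT 1 to 3, so the libraries matched their labels, with transcript signal left in every KO library. The values are the authors' deposited expression values, whose unit is not stated, with a floor of 0.01. Levels of different genes may therefore not be on 1 scale, so differences were taken only within a gene, across libraries. Different genes' values were combined only to sum marker lists and to choose which members to show. Depth is unknown. The values of a library summed to between 674295 and 716255. Fold changes are on the log2(value + 1) scale, which understates the change of low genes, and were tested with limma over the 13911 genes with a mean of at least 1. In bulk tissue fewer cells of a type and less RNA per cell cannot be told apart. In KO 1, KO 2 and WT 3 genes rich in G and C had higher values than in the other libraries, with Spearman's rho across genes of 0.50, 0.61 and 0.40 between GC content and a gene's deviation, against -0.19, -0.56 and -0.66 in KO 3, WT 1 and WT 2. Where a GC correction moves a printed log2 change or median by over 1.5 times, the corrected value is given with it. Differences are also given within KO 1, KO 2 and WT 3 (the GC-high set) and within KO 3, WT 1 and WT 2 (the GC-low set), with no test.

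Of the 40 genes found, 27 had a mean of at least 1 and were tested, and 13 were not. None of the 27 passed limma at an adjusted p of 0.05 (lowest adjusted p 0.469), against 2 of all 13911 genes (0.0144%). At an unadjusted p of 0.05 there were 3, Wnt11, Wnt9a and Sfrp2, all higher in KO, which is 11.1% of the members against 10.3% of all tested genes. The mean log2 value was higher in KO for 19 of 27 (70.4%), against 53.5% of all tested genes, and the median log2 change was 0.055 against 0.014. After GC correction the higher share was 16 of 27 (59.3%) against 49.2%, and the medians were 0.014 and -0.0023. Scaling by median ratios also left 16 of 27, with a median of 0.028, against 47.5% and -0.0095 for all tested genes. Scaling by upper quartiles left 16 of 27, with a median of 0.023, against 45.7% and -0.017. Leaving out 1 library moved the count between 16 (59.3%, WT 3) and 23 (85.2%, WT 2), against 50.1% and 55.6% of all tested genes. The members' median was then 0.026 without WT 1, 0.033 without WT 3, 0.047 without KO 3, 0.098 without KO 1, 0.10 without KO 2 and 0.12 without WT 2. KO and WT values did not overlap in 4 tested members, Wnt11, Wnt9a, Fzd1 and Axin2, each with KO above WT (14.8%, against 7.67% of all tested genes), and no member had all KO values below all WT values (8.77% of all tested genes). Counts and medians over the tested members describe genes that passed a filter on level and carry no test. Wnt11, with a WT mean of 0.915, passed that filter through its KO values. It is counted among the 3, the 19 and the 4 genes above, so these counts are not independent of the filter.

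**Figure D1:**
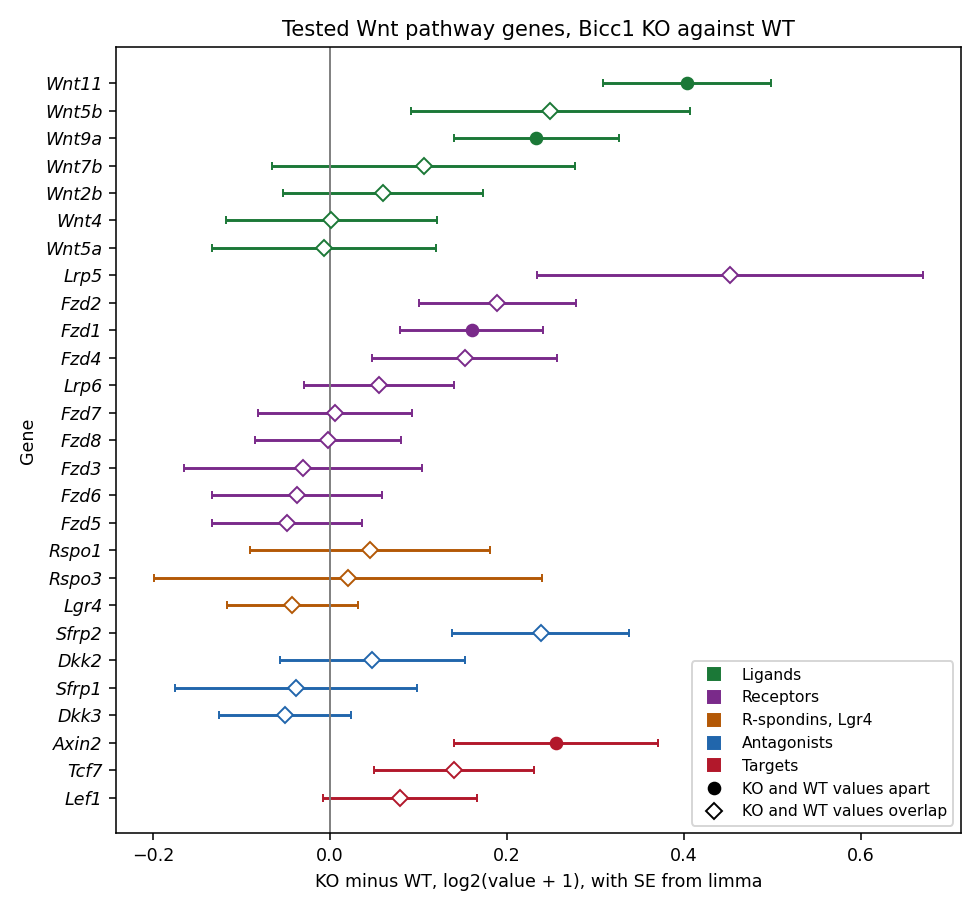
Difference between Bicc1 KO and WT on the log2(value + 1) scale for the 27 tested Wnt pathway genes, with the standard error from limma and colours for the subgroups. Filled circles mark the 4 genes whose KO and WT values do not overlap, Wnt11 (0.40), Axin2 (0.26), Wnt9a (0.23) and Fzd1 (0.16), and open diamonds the 23 others.

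The promoters of these 4 genes are shown because they are the members whose groups were apart in the same direction. Each is the 250 bases before the gene start, from RefSeq on build GRCm38.p6, written 5′ to 3′ on the gene's strand. The files were made on build mm9 and hold no coordinates. Capitals mark matches to the TCF/LEF motifs CTTTGAA and CTTTGAT on either strand. For Wnt11, which has 2 windows in the table, the most upstream is printed.
Wnt11 chr7:98834862-98835111 (+ strand): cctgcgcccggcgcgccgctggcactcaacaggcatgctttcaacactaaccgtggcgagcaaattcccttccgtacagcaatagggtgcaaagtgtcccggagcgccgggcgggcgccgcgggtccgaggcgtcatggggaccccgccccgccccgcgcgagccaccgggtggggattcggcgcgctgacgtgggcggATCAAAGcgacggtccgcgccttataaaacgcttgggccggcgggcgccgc
Wnt9a chr11:59306680-59306929 (+ strand): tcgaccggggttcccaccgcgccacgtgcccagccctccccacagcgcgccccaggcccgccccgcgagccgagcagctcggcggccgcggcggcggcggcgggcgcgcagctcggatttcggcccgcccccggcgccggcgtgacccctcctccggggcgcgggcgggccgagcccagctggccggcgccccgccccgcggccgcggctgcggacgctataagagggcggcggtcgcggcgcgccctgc
Fzd1 chr5:4758217-4758466 (- strand): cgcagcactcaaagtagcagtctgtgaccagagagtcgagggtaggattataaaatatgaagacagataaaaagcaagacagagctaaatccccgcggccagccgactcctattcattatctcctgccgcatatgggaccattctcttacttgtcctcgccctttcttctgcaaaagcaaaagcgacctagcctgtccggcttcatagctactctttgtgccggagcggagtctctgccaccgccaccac
Axin2 chr11:108920099-108920348 (+ strand): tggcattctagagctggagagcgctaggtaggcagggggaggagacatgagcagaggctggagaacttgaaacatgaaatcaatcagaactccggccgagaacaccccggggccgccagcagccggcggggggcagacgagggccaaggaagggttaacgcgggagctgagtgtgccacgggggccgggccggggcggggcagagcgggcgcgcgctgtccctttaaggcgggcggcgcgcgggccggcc

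Of these windows 1 held a match, in Wnt11, where CTTTGAT lies on the opposite strand and starts at position -51 from the gene start. The windows of Wnt9a, Fzd1 and Axin2 held none, which says only that these letters are not in these 250 bases. Windows were found for 27 of the 40 genes. Among their 34 windows 3 held a match (8.82%), in Wnt11, Wnt5b and Dkk1, against 7.48% of the 32851 windows of all genes. The windows of Wnt11, Wnt9a and Axin2 were rich in G and C (70.8%, 84.4% and 69.2%), and that of Fzd1 was at 51.2%.

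Among the ligands, 7 of the 15 found had a mean of at least 1 (Wnt2b, Wnt4, Wnt5a, Wnt5b, Wnt7b, Wnt9a and Wnt11) and 8 lay at 0.219 or below in every library. Of the 7 tested, 6 had the higher mean log2 value in KO (5 under either other scaling, 4 after GC correction). The ligands' median log2 change was 0.11, which was 0.0074 after GC correction, 0.026 without WT 1, 0.068 without KO 3 and 0.22 without WT 3. It was 0.034 within the GC-high set and 0.25 within the GC-low set. Wnt11, a ligand of convergent extension and organ branching, was 1.44, 1.69 and 1.46 in KO 1 to 3 and 0.727, 0.991 and 1.03 in WT 1 to 3. Every KO value was above every WT value, and the gap between the lowest KO and the highest WT library was larger than the spread within either group. KO libraries averaged 1.53 ± 0.138 and WT libraries 0.915 ± 0.164 (SD, n = 3 each), which puts KO at 167% of WT. For Wnt11 the log2 change was 0.40 (SE 0.095), with an unadjusted p of 0.0033 and an adjusted p of 0.469 in limma, so it did not pass. It was 0.34 within the GC-high set and 0.41 within the GC-low set. After GC correction it was 0.23, and with a pseudocount of 0.1 it was 0.69. The WT mean lies under the filter, so Wnt11 entered the test through its KO values. A processed pseudogene on the opposite strand shares 8.80% of its exonic bases, and the kit does not mark strand.

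Wnt9a, a canonical ligand, was 2.06, 2.33 and 2.49 in KO 1 to 3 and 1.83, 1.58 and 1.99 in WT 1 to 3. The groups did not overlap, but KO 1 and WT 3 were nearly level. The log2 difference was 0.23 (SE 0.093, adjusted p 0.469 in limma). It was 0.063 after GC correction and 0.33 with a pseudocount of 0.1. It was 0.093 within the GC-high set and 0.37 within the GC-low set.

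Wnt5a and Wnt5b, close relatives in the β-catenin-independent branch, both peaked in 1 KO library. Wnt5a was 14.9, 13.4 and 19.1 in KO 1 to 3 and 15.0, 16.9 and 15.2 in WT 1 to 3, with means of 15.8 ± 2.97 and 15.7 ± 1.05 (SD, n = 3 each). Wnt5b was 9.03, 8.04 and 12.9 against 7.44, 8.01 and 8.86. KO 3 was the highest library for both genes, while KO 1 and KO 2 lay below the WT range for Wnt5a, and above and within it for Wnt5b. The log2 change of Wnt5b was 0.25 (adjusted p 0.511 in limma) with all libraries and 0.0074 once corrected for GC content. Leaving out 1 library gave 0.068 (KO 3) to 0.38 (KO 2), and the value was -0.050 within the GC-high set and 0.67 within the GC-low set.

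Wnt7b, a canonical ligand of epithelia, was 7.74, 9.72 and 5.90 in KO 1 to 3 and 6.16, 6.73 and 8.38 in WT 1 to 3. All values of the GC-high set lay above those of the GC-low set, so Wnt7b followed that division and not the genotype. Its transcript has a GC content of 59.4%. Wnt2b was 4.95 to 6.66 in KO and 5.15 to 6.08 in WT, and Wnt4 was 1.06 to 1.74 and 1.21 to 1.49, each with overlapping groups. The 8 ligands not tested were Wnt2, Wnt3, Wnt6, Wnt7a, Wnt9b, Wnt10a, Wnt10b and Wnt16. Of these, Wnt3 had all KO values (0.078, 0.083 and 0.13) above all WT values (0.049, 0.064 and 0.061), at levels too low to test. Of the 13 untested members 2 were apart in this way (Wnt3 and Dkk1), as were 7.55% of all genes too low to test.

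**Figure D2:**
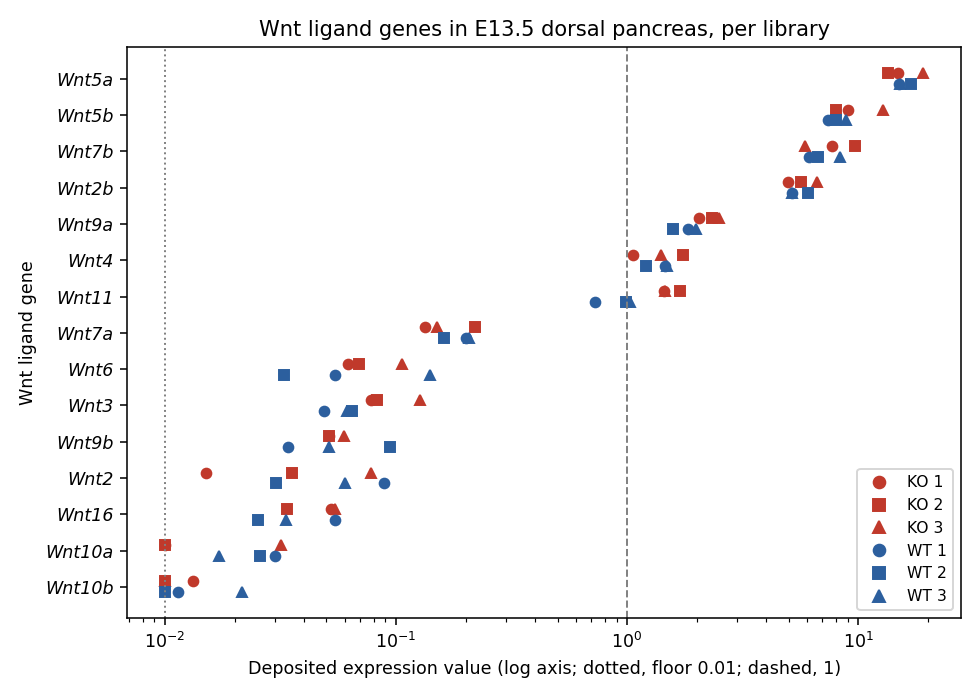
Deposited values of the 15 Wnt ligand genes on a log axis, 1 point per library, with KO in red and WT in blue. The 7 genes from Wnt11 upwards have a mean of at least 1, the other 8 lie at 0.219 or below in every library, and the red and blue points of Wnt11, Wnt9a and Wnt3 do not overlap.

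The Frizzled receptors, with 8 of 10 tested, showed small differences at most. Of the 10 tested receptors and co-receptors, 6 had the higher mean log2 value in KO and 4 in WT. The median log2 change was 0.031, and none reached an unadjusted p of 0.05. This median was 0.011 after GC correction, 0.0032 with scaling by median ratios and -0.0054 with scaling by upper quartiles. Leaving out 1 library gave -0.0020 (WT 3), 0.020 (WT 1), 0.048 (KO 2), 0.061 (KO 3) and 0.12 (WT 2). Within the GC-high set, which has 1 WT library, it was 0.13, with all 10 higher in KO. Over all tested genes the median there was 0.025, with 58.9% higher. Within the GC-low set, which has 1 KO library, it was -0.031 for the receptors, with 4 of 10 higher. Over all tested genes it was 0.015, with 53.1% higher. Fzd1 was 10.7, 9.99 and 11.7 in KO 1 to 3 and 9.16, 9.54 and 9.98 in WT 1 to 3. The groups touched without overlapping, at 9.99 in KO 2 and 9.98 in WT 3. For Fzd1 the log2 change was 0.16 (SE 0.081, adjusted p 0.478 in limma) with 0.11 without KO 3 and 0.0078 after GC correction. Fzd2 was 18.1, 17.2 and 17.8 against 14.5, 14.4 and 17.4. Here WT 3 reached the KO range while WT 1 and WT 2 lay below it. The log2 change of Fzd2 was 0.19 (SE 0.088, adjusted p 0.470 in limma), 0.014 after GC correction, 0.014 within the GC-high set and 0.28 within the GC-low set.

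Fzd7, a receptor of stem and progenitor cells in several tissues, was 34.9, 29.3 and 30.0 in KO 1 to 3 and 30.7, 33.1 and 29.8 in WT 1 to 3. The means were 31.4 ± 3.03 and 31.2 ± 1.71 (SD, n = 3 each), a difference far within the spread. Fzd3, Fzd4, Fzd5, Fzd6 and Fzd8 likewise had overlapping groups, with KO means of 96.2% (Fzd5) to 113% (Fzd4) of the WT means. Fzd9 stayed at 0.37 or below and Fzd10 at 0.71 or below in every library, and neither was tested.

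Lrp5 and Lrp6 encode the canonical co-receptors. Lrp5 was 7.30, 10.9 and 6.29 in KO 1 to 3 and 4.51, 5.01 and 7.48 in WT 1 to 3. Its 3 highest values were those of the GC-high set, although KO 3 also lay above WT 1 and WT 2. The KO mean was 8.16 ± 2.42 and the WT mean 5.67 ± 1.59 (SD, n = 3 each), and they differed by 0.45 on the log2 scale (SE 0.22, adjusted p 0.473 in limma). It was 0.25 without KO 2, 0.23 within the GC-high set and 0.34 within the GC-low set. Lrp6 was 17.9, 19.8 and 17.6 against 17.1, 19.4 and 16.6, with overlapping groups.

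In the R-spondin arm nothing separated KO from WT. Rspo3, a secreted amplifier of Wnt signals, was 3.82, 3.22 and 6.75 in KO 1 to 3 and 4.20, 5.08 and 3.77 in WT 1 to 3. KO 3 stood well above all others, and KO 2 was the lowest. An antisense transcript shares 13.1% of its exonic bases. Rspo1 was 1.58, 1.37 and 2.12 against 1.33, 1.49 and 1.98, again with its highest value in KO 3. Lgr4, a receptor of R-spondins, was 13.1, 13.9 and 13.0 against 14.6, 13.9 and 12.9. Its means of 13.4 ± 0.515 and 13.8 ± 0.851 (SD, n = 3 each) differed by less than the spread. Lgr5, a stem cell marker of the gut and itself a Wnt target, was 0.266 or lower in every library and was not tested.

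**Figure D3:**
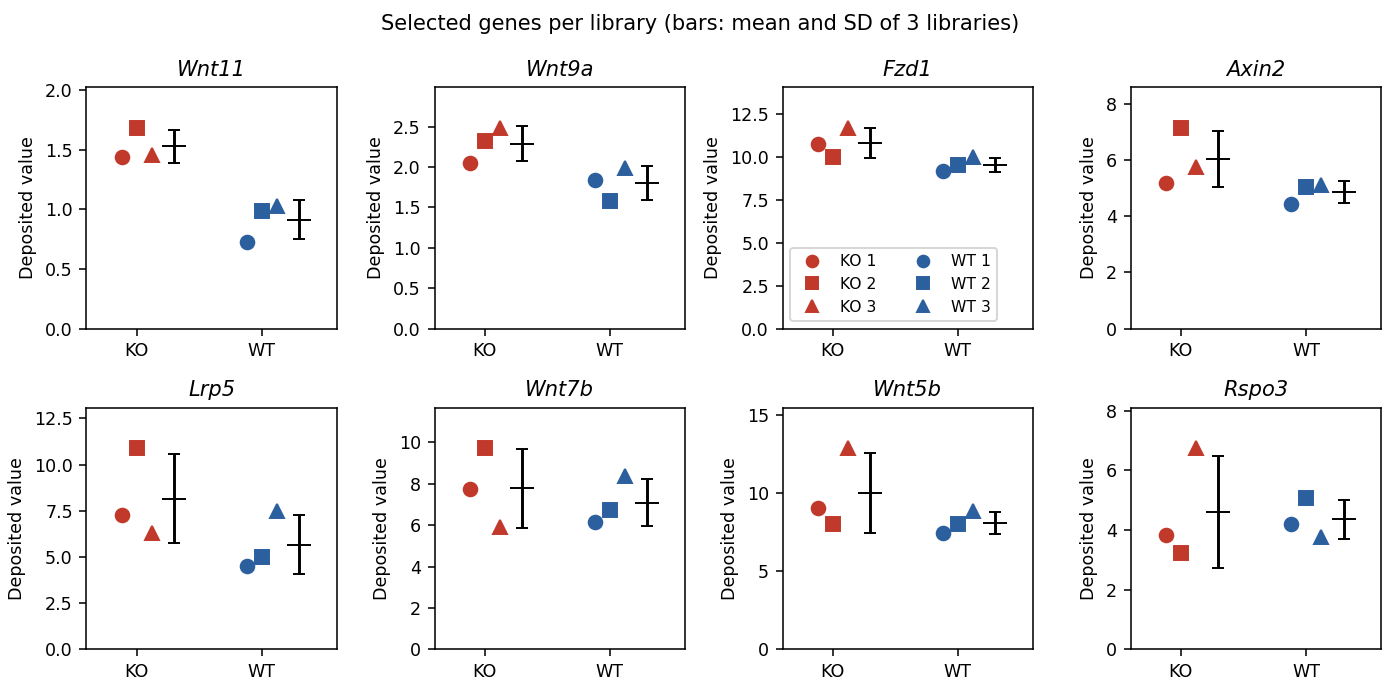
Deposited values of 8 genes in each library, with the mean and SD of each group as black bars. In the upper row the KO values lie above the WT values, Lrp5 and Wnt7b are highest in KO 2 and raised in WT 3, and Wnt5b and Rspo3 are highest in KO 3.

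Among the secreted antagonists, Sfrp2 had the lowest p. Sfrp2, a Frizzled-like protein that binds Wnt ligands, was 15.9, 16.2 and 14.0 in KO 1 to 3 and 11.6, 14.5 and 12.6 in WT 1 to 3. WT 2 lay above KO 3, so the groups overlapped. On the log2 scale Sfrp2 differed by 0.24 (SE 0.10, unadjusted p 0.046, adjusted p 0.469 in limma), and after GC correction it was 0.15. It was 0.32 within the GC-high set and 0.10 within the GC-low set. An antisense transcript shares 16.1% of the exonic bases of Sfrp2, so its values can include reads of that transcript.

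Sfrp1, the related antagonist, was 93.7, 70.9 and 96.0 in KO 1 to 3 and 82.4, 101.2 and 83.0 in WT 1 to 3. Its means of 86.9 ± 13.9 and 88.9 ± 10.7 (SD, n = 3 each) were close, with KO 2 the lowest library. Dkk3, a divergent member of the Dickkopf family, was 1.75, 1.75 and 1.89 against 1.88, 1.82 and 1.99, and Dkk2 was 3.79 to 4.06 in KO and 3.20 to 4.40 in WT. Sfrp5 and Dkk1 lay at 0.363 or below in all libraries and were not tested. Dkk1, which blocks Lrp5 and Lrp6 and is induced by canonical signalling, was 0.10, 0.074 and 0.085 in KO and 0.053, 0.071 and 0.063 in WT, apart but near the floor.

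All 3 canonical target genes had the higher mean log2 value in KO (53.5% of all tested genes did), also under both other scalings and after GC correction. The median log2 change of the 3 was 0.14, and none passed limma. It was 0.081 without KO 3, 0.10 within the GC-high set and 0.24 within the GC-low set. Of 10 further target genes outside the list of members, 6 were tested and none of these had groups apart. The mean log2 value was higher in KO for 4 of them and lower for 2, Ccnd1 and Myc. Ccnd1 was 55.8, 62.3 and 50.5 in KO 1 to 3 and 55.3, 55.6 and 59.1 in WT 1 to 3. Myc was 49.6, 54.4 and 39.9 against 51.7, 50.6 and 50.2. A gene on the opposite strand shares 23.4% of the exonic bases of Ccnd1. Axin2, a negative feedback gene and a widely used readout of β-catenin activity, was 5.20, 7.15 and 5.74 in KO 1 to 3 and 4.43, 5.04 and 5.11 in WT 1 to 3. Every KO value was above every WT value, though KO 1 was above WT 3 by little, and KO 2 was the highest library. KO libraries averaged 6.03 ± 1.01 and WT libraries 4.86 ± 0.375 (SD, n = 3 each), which puts KO at 124% of WT. Axin2 had a log2 change of 0.26 (SE 0.12, adjusted p 0.469 in limma). It was 0.22 within the GC-high set and 0.24 within the GC-low set, but 0.14 without KO 2 and 0.13 after GC correction.

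Lef1, a transcription factor of the pathway and also a target, was 1.44, 1.31 and 1.40 in KO 1 to 3 and 1.11, 1.46 and 1.22 in WT 1 to 3. WT 2 was the highest library of all 6, so the groups overlapped, and the log2 change was 0.079 (SE 0.087, adjusted p 0.685 in limma), 0.12 after GC correction, 0.031 without WT 1 and 0.14 without WT 2. An antisense transcript shares 13.8% of its exonic bases. Tcf7, which encodes the related factor TCF1, was 65.8, 57.8 and 69.9 against 58.3, 54.7 and 62.1. KO 2 lay below WT 1 and WT 3. Its log2 change was 0.14 (SE 0.090, adjusted p 0.515 in limma), with -0.0090 within the GC-high set and 0.30 within the GC-low set. GC correction brought it to 0.067, and leaving out 1 library gave 0.081 (KO 3) to 0.22 (KO 2).

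Members differed in which library carried their extremes. KO 3 was the highest library for 9 of the 27 tested members (Wnt2b, Wnt5a, Wnt5b, Wnt9a, Fzd1, Fzd4, Rspo1, Rspo3 and Tcf7), as it was for 16.4% of all tested genes, and WT 1 was the lowest for 9 of 27, against 15.1%. Values of the GC-high set were all above or all below those of the GC-low set in 3 of 27 members (Wnt7b, Lrp5 and Rspo3), against 34.6% of all tested genes. The transcripts of the tested members ranged in GC content from 40.3% (Fzd3) to 60.0% (Wnt5b), with a median of 52.7% against 49.3% for all tested genes.

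**Figure D4:**
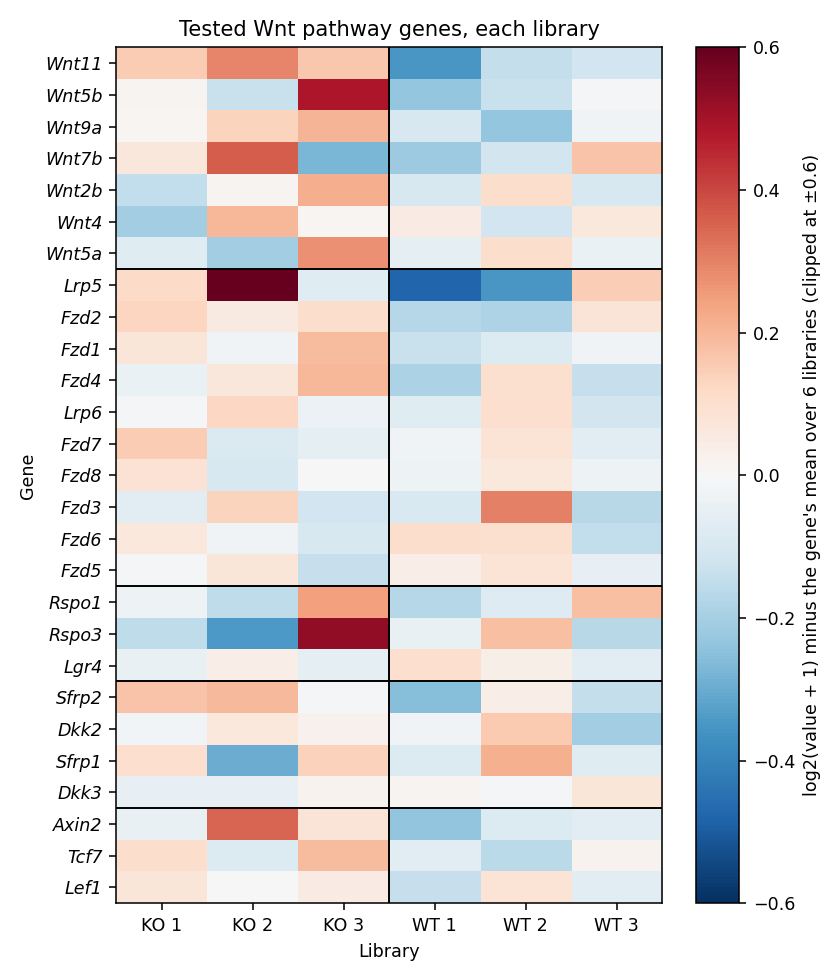
Deviation of each tested gene from its own mean over 6 libraries on the log2(value + 1) scale, red above and blue below, with black lines between subgroups and between KO and WT. Wnt5b and Rspo3 stand out in KO 3, Lrp5 in KO 2, and Wnt11 is red in all KO libraries and blue in all WT libraries.

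Marker levels also differed between libraries. Summed over 9 genes, epithelial markers were 407, 506 and 338 in KO 1 to 3 and 467, 410 and 456 in WT 1 to 3, lowest in KO 3. Mesenchymal markers (9 genes) were 720 to 777 in KO and 738 to 756 in WT, and mesothelial markers (5 genes) 33.3 to 47.1 and 32.7 to 38.0, both highest in KO 3. Leaving out the gene with the highest mean in each list moved both peaks to another library. Vim itself was 260 in KO 1 and 258 in KO 3, so the mesenchymal peak in KO 3 does not come from Vim alone. Without Vim the mesenchymal sum was highest in WT 2 (530) and stood at 519 in KO 3. Without Wt1 the mesothelial sums were 22.2, 22.7 and 22.0 in KO 1 to 3 and 19.5, 18.0 and 24.5 in WT 1 to 3, highest in WT 3. Endothelial markers (7 genes) were 93.9 to 116 in KO and 80.7 to 85.2 in WT. Of these 7 genes 6 had the higher mean log2 value in KO and 1, Emcn, the lower (log2 change -0.079). KO values were all above WT in 4 of the 7, whereas the groups overlapped for Kdr, Tek and Emcn. Without Pecam1, the gene with the highest mean, the endothelial sums stayed apart, with 53.2 in the lowest KO and 48.4 in the highest WT library. Markers of stomach and spleen mesenchyme (Barx1, Tlx1 and Nkx2-5) summed to 5.86 to 12.4 in KO and 3.30 to 5.54 in WT. Without Tlx1 they summed to 3.46 to 5.45 in KO, with KO 1 the highest, and 1.23 to 2.83 in WT. Nkx3-2, a factor of splanchnic mesenchyme counted with the mesenchymal list, was 2.25, 2.04 and 2.58 in KO and 0.817, 0.656 and 1.47 in WT. Of the 9 mesenchymal genes 5 had the higher mean log2 value in KO and 4 in WT. KO values were all above WT in 2, Nkx3-2 and Pdgfrb (7.67% of all tested genes). They were all below WT in 1, Prrx1 (8.77%). Leukocyte markers (4 genes) were 16.1 to 18.6 in KO and 12.1 to 15.8 in WT, neural crest and neuron markers (5 genes) 13.7 to 19.4 and 16.4 to 18.5, and erythroid markers (4 genes) 412 to 730 and 307 to 685. Of the 46 marker genes none was at the floor in all libraries, and Msln, a mesothelial marker, was at 0.031 or less in every library. The part of tissue makeup in the values of Wnt11, Wnt5a, Wnt5b, Rspo3 and the other members was not tested.

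**Figure D5:**
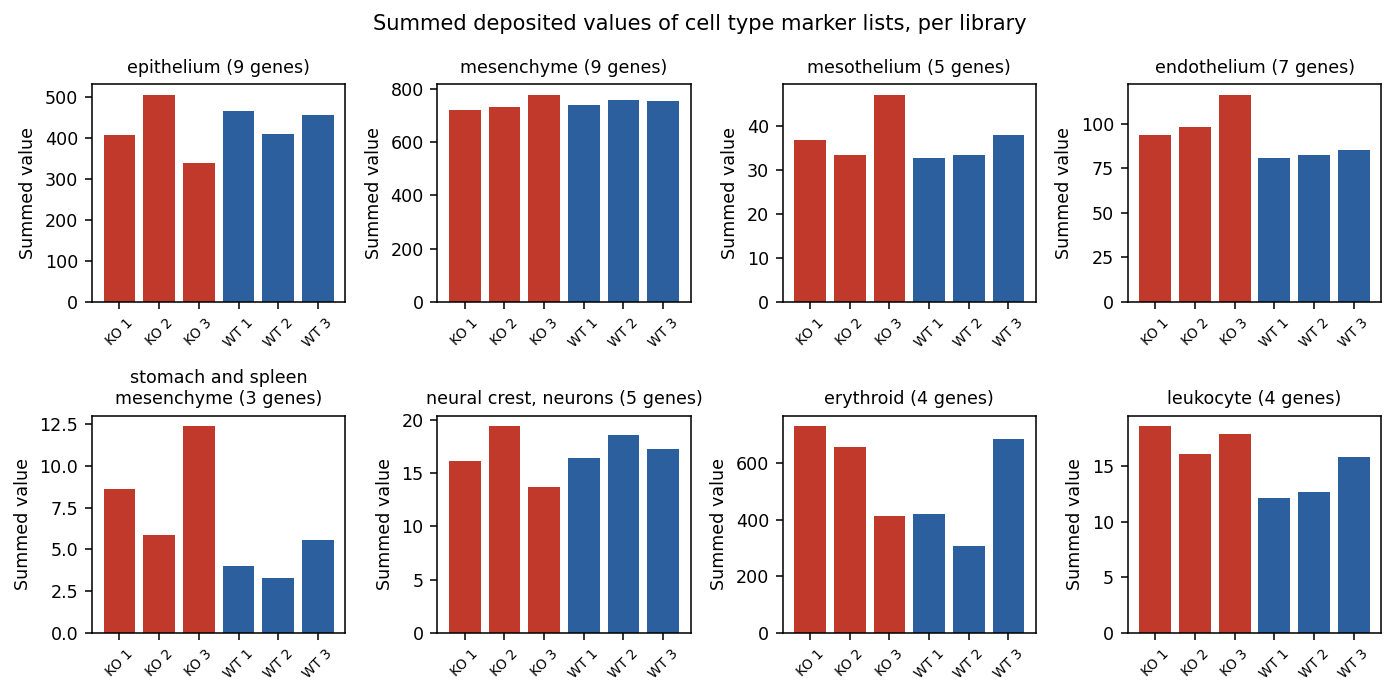
Summed deposited values of 8 lists of cell type markers in each library, KO in red and WT in blue. KO 3 has the lowest epithelial sum (338) and the highest stomach and spleen mesenchyme sum (12.4), and endothelial sums are higher in all KO libraries (93.9 to 116) than in WT (80.7 to 85.2).

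The rest of the pathway was read from 58 further genes, all found in the files, of which 44 were tested. None passed limma at an adjusted p of 0.05 (lowest adjusted p 0.469). The mean log2 value was higher in KO for 31 (70.5%, against 53.5% of all tested genes) and lower for 13, and the median log2 change was 0.064 against 0.014. Frzb and Notum, with WT means of 0.830 and 0.873, passed the filter on level through their KO values. Both are counted among the 31, so this count and median are not independent of the filter. After GC correction 23 of 44 were higher (52.3% against 49.2%), with medians of 0.0083 and -0.0023. Scaling by upper quartiles gave a median of 0.032 and scaling by median ratios 0.040, against -0.017 and -0.0095 for all genes. Leaving out 1 library gave medians of 0.044 (KO 3), 0.050 (WT 3), 0.051 (WT 1), 0.064 (KO 2), 0.088 (KO 1) and 0.0996 (WT 2). At an unadjusted p of 0.05 in limma there were 7 (15.9%, against 10.3% of all tested genes). Of these, 6 were higher and 1 lower in KO (5.89% and 4.36% of all tested genes). Among the 6, Ptk7, Tcf7l1 and Bcl9l had all values of the GC-high set above those of the GC-low set (19.4% of all tested genes). KO values were all above WT in 7 of the 44 (15.9%, against 7.67%) and all below in 1 (8.77% of all tested genes). Wls, which carries Wnt ligands to the cell surface, was 26.7, 23.5 and 32.0 in KO 1 to 3 and 28.5, 29.3 and 27.5 in WT 1 to 3. Its KO libraries lay on both sides of the WT range.

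Cer1 encodes Cerberus, a secreted inhibitor best known for binding Nodal and BMP ligands, and for Wnt inhibition in the frog. It was 0.904, 1.33 and 0.905 in KO 1 to 3 and 2.28, 2.08 and 2.23 in WT 1 to 3. Every KO library was below every WT library, with a KO mean of 1.05 ± 0.244, 47.6% of the WT mean of 2.20 ± 0.103 (SD, n = 3 each). The log2 change of Cer1 was -0.65 (SE 0.10), with an unadjusted p of 0.00028 and an adjusted p of 0.469 in limma, so it did not pass. It was -0.62 within the GC-high set, -0.74 within the GC-low set, and -0.64 after GC correction, and over 16 alternatives the adjusted p ranged from 0.082 to 0.907.

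Inside the cell, Dvl2, a Dishevelled gene, was 3.80, 4.05 and 3.86 in KO 1 to 3 and 3.20, 3.21 and 3.88 in WT 1 to 3. WT 3 lay within the KO range, and the adjusted p was 0.489 in limma. Other genes, Acadvl on the opposite strand among them, share 19.7% of its exonic bases. Ctnnb1, which encodes β-catenin, was 480, 471 and 481 against 461, 462 and 462, with a KO mean of 103% of the WT mean, groups apart and an adjusted p of 0.745. Other transcripts share 15.1% of its exonic bases. Axin1, the scaffold of the destruction complex, was 14.7, 15.7 and 15.0 against 12.9, 12.7 and 13.8. Its log2 change of 0.19 (adjusted p 0.469) was 0.020 after GC correction.

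Bcl9, a co-activator of β-catenin, was 13.1, 14.5 and 13.48 in KO 1 to 3 and 9.38, 11.4 and 11.1 in WT 1 to 3, with every KO value above every WT value. Its log2 change was 0.34 (SE 0.090, adjusted p 0.469 in limma), 0.29 within the GC-high set, 0.35 within the GC-low set, and 0.20 after GC correction. Ctnnbip1, an inhibitor that keeps β-catenin from TCF factors, was 12.6, 12.4 and 11.7 against 8.71, 9.42 and 11.5. WT 3 came close to KO 3, and the log2 change of 0.29 (adjusted p 0.469) was 0.15 after GC correction and 0.10 within the GC-high set. An antisense transcript shares 25.8% of its exonic bases.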

How the data were processed

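RNA was extracted from dorsal pancreata and made into libraries with a TruSeq kit that does not mark strand, per the labels' protocols. The submitters' processing notes name CASAVA 1.82, Bowtie 0.12.7 and the build mm9. How genes were annotated, counted and normalized is not given in the sources used here. Each deposited file holds the authors' signal per gene for 1 library, never below 0.01. Symbols were found for 22624 identifiers (92.8%) in a GENCODE table, whose transcripts gave GC content and exon overlap.

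Genes with a mean of at least 1 were tested in limma 3.58.1 (R 4.3.3) on log2(value + 1), two-sided, with a mean-variance trend and no covariate. Adjusted p-values are Benjamini-Hochberg values over all 13911 genes. With 3 libraries a group the smallest exact p is 0.1, so single genes had no exact test. GC correction was a loess fit (span 0.3) per library over 13385 genes. Scripts were tested on simulated data and used Python 3.11.15.

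The members and lists were chosen with earlier results of these data known. Values per library are given for members whose groups do not overlap, the 2 with the lowest p and the 2 with the highest mean in each subgroup, and for further pathway genes with groups apart and an unadjusted p under 0.05, with Dvl2, Ctnnb1 and Wls. Wnt7b, Lef1, Nkx3-2, Ascl2, Sp5, Sost, Frzb, Tlx1, Wt1 and Ptk7 were added after their values were seen. So were Ccnd1, Myc, Prrx1, Pdgfrb, Emcn, Vim, Notum, Tcf7l1, Bcl9l and the marker sums without 1 gene.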

Additional observations from a re-analysis of the deposited data

How the results depend on the processing

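No Wnt member and no other pathway gene passed the adjusted threshold in limma in any alternative run, and the lowest adjusted p of a member was 0.135, for Wnt11 without WT 3. Members at an unadjusted p of 0.05 numbered 3, and 2 with no filter or with scaling by median ratios, 1 with scaling by upper quartiles, after GC correction, with the side of the libraries as a term or with the replicate block, 0 with the replicate block and GC correction, and 1 (without WT 1) to 4 (without KO 2 or WT 3) when a library was left out. Of all genes, 2 passed, and 3 after GC correction, with scaling by upper quartiles or at a threshold of 0.10, 1 with no filter, 0 with the replicate block, 1 with the block and GC correction, and 1 to 8 (8 without KO 2) when a library was left out. The cause of these moves was not tested. The deviations of same-numbered KO and WT libraries from their group means correlated at -0.22, -0.40 and -0.64 across genes. Each such pair holds 1 library of the GC-high set and 1 of the GC-low set. These values therefore cannot show whether replicate numbers pair the libraries. Bicc1 had an adjusted p of 0.088 with the block, at the same log2 change of -1.89. Log2 changes were recomputed for all 27 tested members and 8 other genes. Those of Bicc1, Wnt11, Wnt9a, Fzd1, Fzd2, Lrp5, Sfrp2, Axin2, Lef1, Cer1, Bcl9, Axin1, Ctnnbip1, Ctnnb1 and Fzd4 kept their sign in every alternative. With scaling by median ratios the sign turned for Fzd7 (-0.022), Rspo3 (-0.0019) and Wnt4 (-0.016). With scaling by upper quartiles the sign turned for Fzd7 (-0.030), Rspo3 (-0.0089) and Wnt4 (-0.022). With a pseudocount of 0.1 the sign turned for Wnt4 (-0.0050). After GC correction, with or without the block, the sign turned for Wnt5a (0.022), Fzd7 (-0.10), Rspo1 (-0.19), Dvl2 (-0.037), Wls (0.025), Wnt7b (-0.13), Wnt2b (-0.11), Fzd3 (0.069) and Wnt4 (-0.16). With the side term the sign turned for Wnt5a (0.073), Sfrp1 (0.023), Wls (0.0070), Wnt7b (-0.031), Fzd8 (0.0063) and Wnt4 (-0.012). Within KO 1, KO 2 and WT 3 the sign turned for Wnt5b (-0.050), Tcf7 (-0.0090), Rspo1 (-0.27), Rspo3 (-0.081), Lgr4 (0.062), Fzd3 (0.20), Fzd5 (0.080), Fzd6 (0.17), Fzd8 (0.025) and Wnt4 (-0.068). Within KO 3, WT 1 and WT 2 the sign turned for Wnt5a (0.25), Fzd7 (-0.085), Lrp6 (-0.049), Sfrp1 (0.072), Dkk3 (0.019), Wls (0.14), Wnt7b (-0.11) and Dkk2 (-0.042). Leaving out 1 library turned the sign of Wnt5a (-0.14 to 0.096), Fzd7 (-0.070 to 0.052), Sfrp1 (-0.12 to 0.10), Wls (-0.18 to 0.039), Wnt7b (-0.049 to 0.27), Fzd8 (-0.048 to 0.045), Wnt4 (-0.098 to 0.11), Rspo1 (-0.068 to 0.15), Rspo3 (-0.24 to 0.20), Wnt2b (-0.034 to 0.15), Fzd3 (-0.12 to 0.11), Fzd5 (-0.097 to 0.0075), Fzd6 (-0.12 to 0.0067) and Dkk2 (-0.044 to 0.14). The side term and the values within each set of libraries were chosen after seeing the data. A test for counts was not run, as the files hold none, and unknown depth sets no limit that can be stated for genes near the floor.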

Other observations

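Among the 14 further pathway genes that were too low to test, 3 had all KO values above all WT values (7.55% of all genes too low to test had). Ascl2, a Wnt target in intestinal stem cells, was 1.01, 1.33 and 0.992 in KO 1 to 3 and 0.845, 0.894 and 0.882 in WT 1 to 3. Sp5, a direct Wnt target, was 0.041, 0.073 and 0.065 against 0.016, 0.032 and 0.032. Sost, which encodes the Lrp5 and Lrp6 inhibitor sclerostin, was 0.254, 0.250 and 0.350 against 0.179, 0.140 and 0.178. Sp5 and Sost lie near the floor, and none of the 3 was tested.

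Frzb, a secreted Frizzled-related antagonist, was 4.20 in KO 3 and between 0.757 and 1.15 in the other 5 libraries, so its KO mean of 2.04 rests on 1 library. KO 3 was also the highest library for Tlx1 (8.71, against 2.07 to 3.15 in the others), a factor of spleen development, and for Wt1 (25.1, against 10.7 to 15.4), a factor of mesothelium. The other 4 genes of the mesothelial list were highest elsewhere: Upk3b and Lrrn4 in WT 3, Krt19 and Msln in KO 2. Ptk7, a co-receptor of the polarity branch, was 20.7, 24.1 and 18.9 in KO 1 to 3 and 14.5, 14.2 and 19.6 in WT 1 to 3. Its 3 highest values were those of the GC-high set. Within that set WT 3 lay below KO 1 and KO 2, and KO 3 lay above WT 1 and WT 2. The unadjusted p was 0.025 and the adjusted p 0.469 in limma.

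In the GENCODE annotation of GRCm38, 4 pairs of the listed ligands are neighbouring protein-coding genes. Both genes of the pairs Wnt6 with Wnt10a and Wnt9b with Wnt3 lay at 0.14 or below in every library. Wnt10b lay at 0.021 or below, and its neighbour Wnt1 was not analysed here. Wnt9a, whose neighbour Wnt3a was not analysed here, was the 1 gene of these pairs with a mean of at least 1.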
